A study of Mus musculus with 8 samples.

Results

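The 10 genes described here encode tensins and other proteins that build focal adhesions or bundle and branch actin beside them. They are TNS1, TNS3, TNS4, PXN, ZYX, VCL, TLN1, FERMT1, FSCN1 and CTTN, found by gene name in the deposited table, 10 of 58304 genes kept. They were chosen with the fold changes between the 2 groups of libraries already known. Their changes are therefore given as a description, with no p-value. Where a member is said to be past the threshold, or not, that too is description. Of the 10, 9 had a mean of at least 1 FPKM and were among the 11536 genes tested. FPKM is a level per length of transcript, not of the gene's span, and per depth of library. TNS1 was below that level.

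The study compared RNA from mouse wounds given PBS with RNA from wounds given rFGF4 (recombinant FGF4, a fibroblast growth factor), with 4 libraries in each group. Per the labels, both groups were C57BL/6 mice aged 6 to 8 weeks, and the skin within 2 mm of the wound was taken at day 6. The labels number the replicates without saying whether each is a separate animal, so p-values measure the spread between these libraries. The expression table departs from the labels, since all 58304 gene identifiers are human and 0 are mouse. The groups are therefore named only by their labels, as PBS libraries and rFGF4 libraries, with nothing said of mouse wounds. The columns of the PBS libraries are headed C with a replicate number, which was read as control because the other columns are headed FGF4, and no label spells C out. Every direction given rests on that reading.

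The libraries held 62044121 to 73680756 counts. All 6 keratinocyte markers had a mean FPKM of at least 1, with a summed FPKM of 2049 to 2334 in the PBS libraries and 1877 to 2014 in the rFGF4 libraries. KRT5 and KRT14, at means of 910 and 1026 FPKM, carry most of this sum, which does not show the direction of each marker. Of the dermal fibroblast markers, 0 of 6 reached a mean FPKM of 1 (summed FPKM 0.776 to 0.864 and 0.411 to 0.511). It was reached by 1 of 5 smooth muscle markers (2.30 to 2.64 and 2.21 to 2.63), 1 of 5 leukocyte markers (7.21 to 8.66 and 7.93 to 10.6) and 0 of 4 skeletal muscle markers. The leukocyte marker was CD68, at a mean of 8.66 FPKM. PTPRC, LYZ, CSF1R and CD3E were at 0.00319, 0.0181, 0.0244 and 0.00397 FPKM. Of the endothelial markers 1 of 5 reached a mean FPKM of 1, with sums of 1.86 to 3.09 and 3.08 to 4.09. CNN1, of smooth muscle, and MYH4, of skeletal muscle, had 0 counts in all libraries, under a floor of 12 counts or 0.163 to 0.193 CPM. The part of these markers in the results below was not tested.

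Focal adhesions are the sites where integrins, the receptors that bind the matrix outside a cell, are tied to actin inside it. Talin (TLN1) and kindlins (FERMT1 is the kindlin of epithelia) bind integrin tails and activate them, vinculin (VCL) strengthens the bond of talin to actin, and paxillin (PXN) and zyxin (ZYX) are LIM domain scaffolds. Tensins bind integrin tails too, and TNS4, also called cten, is shorter and lacks the N-terminal part of the other tensins, which in TNS1 binds actin. In mammary epithelial cells, EGF is known to raise TNS4 while lowering TNS3, an exchange linked to cell migration. Fascin (FSCN1) bundles actin in filopodia, and cortactin (CTTN) supports branched actin in lamellipodia and invadopodia.

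The table's own annotation places 9 of the 10 genes in the focal adhesion, as it does 2.77% of all tested genes. The 10 were chosen as genes of focal adhesions and nearby actin, so the difference follows from the choice. FSCN1 is the exception and is annotated to the lamellipodium, podosome and invadopodium. PXN and CTTN are annotated to the lamellipodium as well. Of the tensins among the 10, TNS1 and TNS4 are annotated to actin binding and TNS3 is not. The table gives human coordinates without a genome build. As it gives them, TNS4 (ENSG00000131746) lies on chromosome 17 from 40475828 to 40501623 on the minus strand, a span of 25.8 kb. TNS3 (ENSG00000136205) spans 307 kb and TNS1 (ENSG00000079308) 234 kb. Some genes overlap a member on the opposite strand, and no source used here says if the strand was counted. EPHA1, at 45.9% of the count of ZYX, and AP3M1, at 32.8% of the count of VCL, are the largest of these. These percentages use the whole count of each gene, and the reads within the overlap were not measured. The count of PXN-AS1 was 1.65% of that of PXN, and no gene in the table overlaps TNS3, TNS4, FERMT1 or FSCN1.

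Levels per length spanned a wide range among the 10 genes. In the PBS libraries FSCN1 was highest, at 137 ± 6.85 FPKM (mean ± SD, n = 4). PXN (34.5 ± 1.32), CTTN (34.4 ± 0.972) and ZYX (32.3 ± 1.73) came next, with overlapping libraries. VCL followed at 23.3 ± 0.83 FPKM and TNS4 at 18.4 ± 0.658. TLN1 stood at 15.8 ± 0.749 FPKM and TNS3 at 12.8 ± 0.978, and neither overlapped its neighbour in the order. FERMT1, at 20.6 ± 12.2 FPKM, had no fixed place because its libraries ranged from 13.3 to 38.8. TNS1 was lowest, at 0.623 ± 0.182 FPKM.

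**Figure D1:**
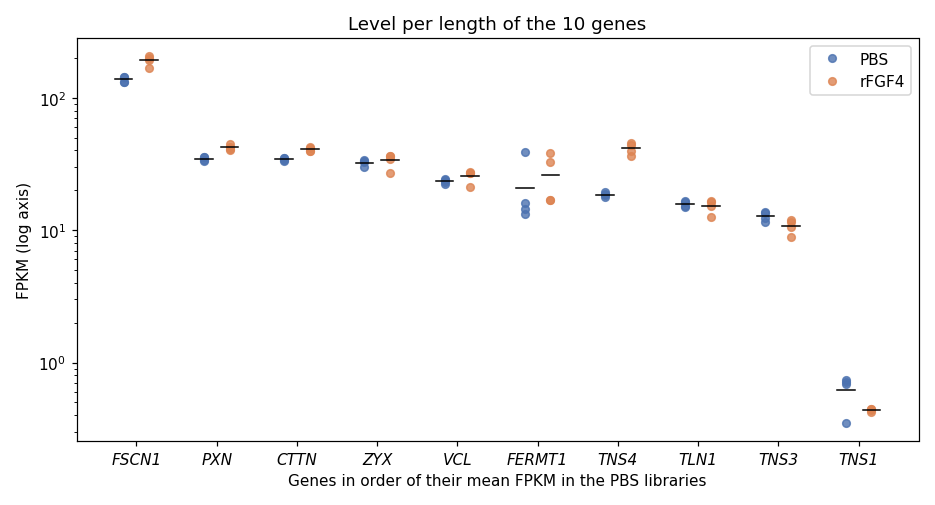
FPKM on a log axis for the 10 genes, in order of their mean in the PBS libraries; each point is a library (blue PBS, orange rFGF4, n = 4 each) and black lines are group means. TNS4 lies between VCL and TLN1 in the PBS libraries and beside PXN and CTTN in the rFGF4 libraries, and FERMT1 spreads over both groups.

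The order changed at TNS4. In the rFGF4 libraries it stood at 41.3 ± 3.96 FPKM, and its range of 36.4 to 45.1 overlapped those of PXN (40.1 to 45.0) and CTTN (39.4 to 42.8). VCL, which was above TNS4 in every PBS library, stood at 21.3 to 27.4 FPKM, below all 4 rFGF4 values of TNS4.

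For comparisons between groups, levels are CPM, counts of a gene in relation to all counts of tested genes in its library, after TMM scaling. TNS4 was counted at 108, 104, 110.3 and 108 CPM in PBS replicates 1 to 4. It was at 264, 229, 263 and 224 CPM in the rFGF4 libraries. Every rFGF4 library was above every PBS library, by a wide margin against the spread of either group. The fitted log2 fold change, rFGF4 over PBS, was 1.19 (SE 0.07), a 2.28-fold difference and the largest among the 9 tested members. It remained between 1.12 and 1.23 under the 17 other settings run, and TNS4 was past the threshold in each. These settings refit the libraries by which the members were chosen, so passing them is no independent support for any member. In bulk RNA, a change in the make-up of cells and a change in RNA per cell cannot be told apart.

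TNS3, one of the longer tensins, did not rise with it. Its PBS libraries held 189.9, 164, 187 and 177 CPM and its rFGF4 libraries 162, 166, 152 and 131 CPM. The groups overlapped, through PBS replicate 2 and rFGF4 replicate 2, and the lowest value was that of rFGF4 replicate 4. The log2 fold change was −0.23 (SE 0.09) and was not past the threshold under any setting. Without rFGF4 replicate 4 it was −0.17.

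TNS1 was counted at 6.83, 13.6, 14.1 and 14.1 CPM in the PBS libraries and at 8.71, 8.57, 8.74 and 8.74 CPM in the rFGF4 libraries. PBS replicates 2 to 4 were above all rFGF4 libraries, and PBS replicate 1 was below them. With the filter lowered to a mean FPKM of 0.1, its log2 fold change was −0.48 (SE 0.22), not past the threshold. TNS2, the remaining tensin, was low in all libraries, at 0.284 to 0.418 FPKM.

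With the 4 tensins summed per library, TNS4 made up 57.4% ± 0.769 of the tensin FPKM in the PBS libraries and 78.3% ± 1.78 in the rFGF4 libraries (mean ± SD, n = 4 each). TNS3 made up 39.6% ± 1.36 and 20.2% ± 1.69, and TNS1 1.95% ± 0.587 and 0.832% ± 0.0667. The ratio of TNS4 to TNS3 FPKM was 1.37, 1.53, 1.42 and 1.48 in the PBS libraries. It was 3.94, 3.33, 4.17 and 4.13 in the rFGF4 libraries. The ratio did not overlap between the groups, and the summed tensin FPKM was 32.2 ± 1.52 and 52.8 ± 4.93. TNS4 accounts for the higher sum, since TNS1 and TNS3 had lower means in the rFGF4 libraries.

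**Figure D2:**
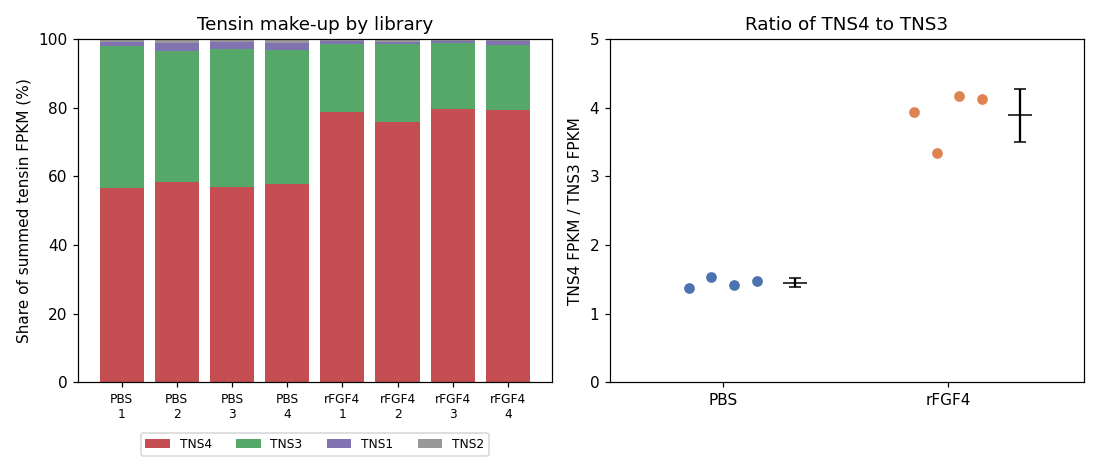
Left, share of the summed FPKM of TNS1, TNS2, TNS3 and TNS4 in each library (%); right, ratio of TNS4 to TNS3 FPKM by library, with mean and SD in black. TNS4 holds 56.6% to 58.3% in the PBS libraries and 75.7% to 79.6% in the rFGF4 libraries.

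Both actin regulators were higher in the libraries labelled rFGF4. FSCN1 was at 581, 582, 622 and 647 CPM in PBS replicates 1 to 4 and at 855, 733, 902 and 960.05 CPM in the rFGF4 libraries. All 4 rFGF4 values were above the PBS range, with replicate 2 nearest to it. The log2 fold change was 0.51 (SE 0.09), or 1.42-fold. CTTN stood at 289.8, 283, 272 and 298 CPM against 351, 349, 337 and 348 CPM. The groups did not overlap, and both were tight, with a coefficient of variation of 3.80% and 1.86%. Its log2 fold change was 0.28 (SE 0.05), or 1.21-fold. FSCN1 and CTTN were past the threshold under all 17 other settings.

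The scaffold PXN was at 314, 303, 289.95 and 324 CPM in PBS replicates 1 to 4 and at 369.9, 352, 389.96 and 424 CPM in the rFGF4 libraries. The groups did not overlap, and rFGF4 replicate 4 was highest. Its log2 fold change was 0.32 (SE 0.07), or 1.25-fold. PXN was not past the threshold with no filter on low values, nor when any of PBS replicates 1, 2 and 3 or rFGF4 replicates 1 and 3 was left out.

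ZYX, the other LIM scaffold, was measured at 116, 129.9, 125 and 135 CPM in the PBS libraries and at 136, 105, 146 and 149 CPM in the rFGF4 libraries. rFGF4 replicate 2 was below all PBS libraries while the other rFGF4 libraries were above them. The log2 fold change was 0.08 (SE 0.11), and 0.18 without rFGF4 replicate 2. ZYX overlaps EPHA1, as given above, and any effect of this on its counts was not tested.

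Talin and vinculin were not past the threshold. VCL was at 286, 279, 279 and 269.8 CPM in PBS replicates 1 to 4 and at 326, 317, 337 and 268 CPM in the rFGF4 libraries. rFGF4 replicates 1 to 3 were above every PBS library and replicate 4 was below them all. The log2 fold change was 0.16 (SE 0.07), not past the threshold. Without rFGF4 replicate 4 it was 0.23 and was past it, the only one of the 17 settings to do so. TLN1 stood at 194, 182, 188 and 180.4 CPM against 194, 192, 184 and 156 CPM. Its log2 fold change was −0.04 (SE 0.08), and 0.02 without rFGF4 replicate 4, the library with the lowest value.

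That library was the lowest of its group for 4 of the 9 tested members, namely TNS3, TNS4, TLN1 and VCL, and the highest for PXN, FSCN1 and ZYX. It was the lowest of the 4 for 34.3% of 11506 tested genes with counts in all libraries, and for 46 of the 85 tested genes of the wider list described below (54.1%). Its part in the results was not tested.

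FERMT1 did not follow the labels. Its values were 103, 92.3, 244 and 86.6 CPM in the PBS libraries and 109, 106, 251 and 221 CPM in the rFGF4 libraries. PBS replicate 3 and rFGF4 replicates 3 and 4 sat on a high level, and the other 5 libraries on a low one. The log2 fold change was 0.38 (SE 0.42), and it ran from 0.14 without rFGF4 replicate 3 to 0.87 without PBS replicate 3. The coefficient of variation of FERMT1 was 57.5% in the PBS libraries and 43.9% in the rFGF4 libraries. That of the 8 other tested members was 2.39% to 6.57% and 1.86% to 15.2%. FERMT1 was the only tested member with a gap of at least 1 on the log2 scale between neighbouring libraries of a group. Such a gap was seen in 736 of 11506 genes (6.40%).

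**Figure D3:**
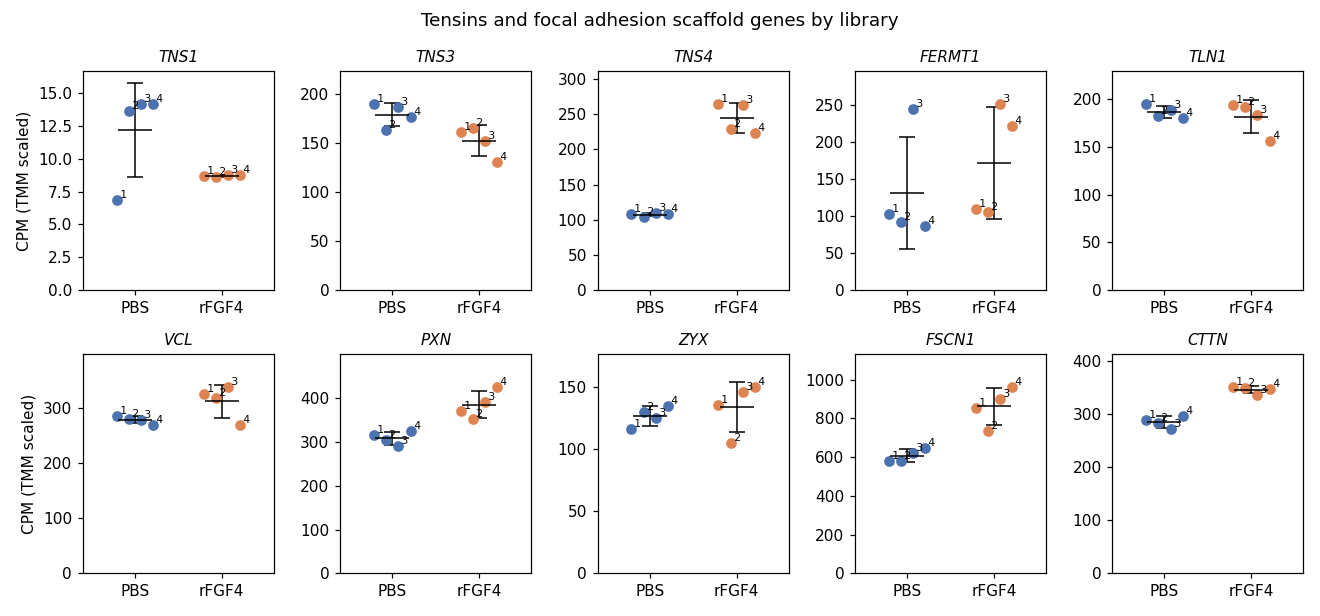
CPM of the 10 genes in each library (points, numbered by replicate; n = 4 per group), with mean and SD in black and all axes from 0. TNS4, FSCN1, PXN and CTTN do not overlap between the groups, and FERMT1 is high in PBS replicate 3 and rFGF4 replicates 3 and 4.

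By the fit across all tested genes, with an edgeR adjusted p under 0.05 as the threshold, 4 of the 9 tested members were higher in the rFGF4 libraries and 0 were lower, as also by DESeq2 and by limma. Over all tested genes, 5.49% were higher and 4.54% lower. The same 4 members, TNS4, FSCN1, PXN and CTTN, had groups that did not overlap in CPM, with rFGF4 above. That was so for 10.1% of tested genes, and the reverse, which held for 0 members, for 9.26%. The median log2 fold change of the 9 tested members was 0.28, beside 0.00 over all tested genes. Since the members were chosen from this contrast, nothing is read from these counts or from this median.

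Other genes of focal adhesions and of actin at the cell edge were taken from a list chosen by role, without the 10 members. The list was drawn up with earlier results of these data known. Of 107 such genes 85 were tested, 3 were higher and 6 lower, and 76 did not pass. The shares, 3.53% higher and 7.06% lower, stand beside 5.49% and 4.54% of all tested genes, and the median log2 fold change was −0.03. These shares leave out the members, of which 4 of the 9 tested were higher, so they do not cover all genes of this kind. The median difference of rFGF4 replicate 4 from the other rFGF4 libraries, over the list, was −0.13 on the log2 scale. Without that library 4 genes were higher and 7 lower, with a median of −0.0025. ACTN1, an actinin that crosslinks actin, rose from 299.97 ± 6.55 to 436 ± 33.1 CPM, by 0.54 on the log2 scale (SE 0.06, edgeR adjusted p = 0.00179). SRC, a kinase that phosphorylates paxillin and cortactin, rose by 0.22 (SE 0.06, edgeR adjusted p = 0.0390). ACTN1 passed under all 17 other settings and SRC under 4 of them. The count of higher genes was 1 when any PBS library, or rFGF4 replicate 1 or 3, was left out.

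NEDD9, an adaptor of the CAS family that binds focal adhesion kinase, had the largest change of the list. Its values were 35.6, 33.6, 34.6 and 32.7 CPM in the PBS libraries and 13.9, 17.2, 15.9 and 15.4 CPM in the rFGF4 libraries. It fell by 1.13 on the log2 scale (SE 0.08, edgeR adjusted p = 0.00028), with no overlap. STARD13, a GTPase-activating protein, had a log2 fold change of −0.53 (SE 0.10, adjusted p = 0.0145), and AJUBA, a LIM protein related to zyxin, −0.50 (SE 0.07, adjusted p = 0.00335). ABI1, a subunit of the WAVE complex, had −0.44 (SE 0.08, adjusted p = 0.0125) and KANK2, which binds talin, −0.40 (SE 0.07, adjusted p = 0.00869). ARPC5, a subunit of the Arp2/3 complex, had −0.22 (SE 0.06, adjusted p = 0.0416) and passed under 7 of the 17 other settings. NEDD9, STARD13, AJUBA, ABI1 and KANK2 passed under all 17.

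By role, 0 of 4 tested members of the ILK, PINCH and parvin complex, which links integrins to actin beside kindlins, were past the edgeR threshold, and 0 had an unadjusted p under 0.05. Over all 11536 tested genes 1157 were past it and 2896 had such a p, so a count of 0 among 4 genes is not a result about this complex. DESeq2 and limma on log2(FPKM + 1) also called 0 of these 4. Of the integrin activators and membrane-proximal links 1 of 9 tested was lower (KANK2) and of the kinases and adaptors 1 of 20 was higher and 2 lower. Of the actin linkers and LIM proteins 2 of 21 were higher and 1 lower, and of the 31 tested cell-edge actin genes 2 were lower.

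Of the other talin and kindlins, TLN2 reached at most 0.138 FPKM and FERMT3, the kindlin of blood cells, 0.267. FERMT2, the broadly expressed kindlin, stood at 11.2 ± 1.26 and 11.7 ± 1.62 CPM, with a log2 fold change of 0.06 (SE 0.13, adjusted p = 0.821). FERMT2 lay between 0.867 and 1.3 FPKM, below the lowest FERMT1 value of 13.3 FPKM.

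**Figure D4:**
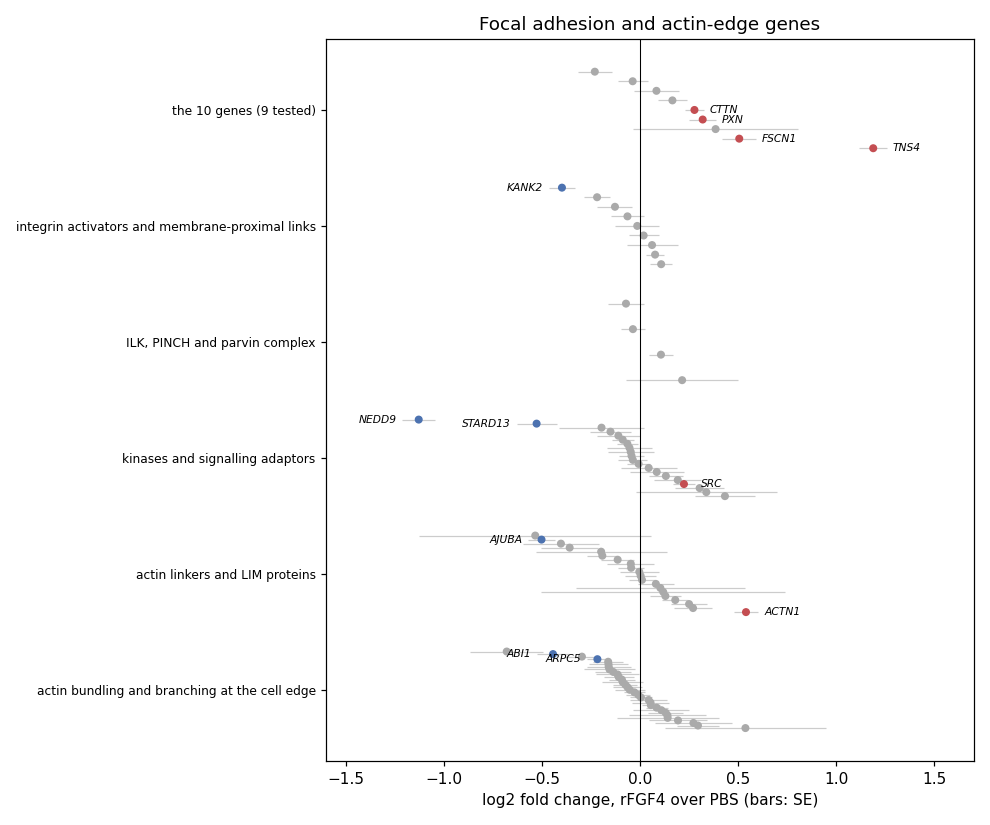
Log2 fold change, rFGF4 over PBS, of the tested members (9) and of the wider list (84 of its 85 tested genes, in 5 groups by role), with SE bars; red is higher and blue lower by the edgeR threshold, grey not past it. The members past it lie to the right and TNS4 is farthest, and the wider list shows 2 red and 6 blue points. The members were chosen with this contrast known and left out of the list, so the rows are not compared.

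The deposited annotation names 398 further genes of the focal adhesion, a set added after the data were seen. It shares 66 genes with the wider list, which is 61.7% of that list and 16.6% of the annotated set. Of 311 tested, 18 were higher and 14 lower (5.79% and 4.50%), with a median log2 fold change of 0.01. The genes named here had the 4 largest changes in each direction among the called genes outside the wider list. HMGA1, a chromatin protein, rose by 0.79 (SE 0.12, edgeR adjusted p = 0.00538), and CDC42EP1, an effector of CDC42, by 0.74 (SE 0.13, adjusted p = 0.0100). ITGB5, the beta subunit of a vitronectin receptor, rose from 88.0 to 144 CPM, by 0.71 (SE 0.07, adjusted p = 0.00108). PLAUR, the urokinase receptor, rose by 0.68 (SE 0.14, adjusted p = 0.0199), a call lost when any of PBS replicates 1 to 3 or rFGF4 replicate 3 was left out. FGFR3 had a log2 fold change of −1.03 (SE 0.18, adjusted p = 0.00979), LRP1, an endocytic receptor, −0.65 (SE 0.09, adjusted p = 0.00436), MISP, an actin-binding protein of the cell cortex, −0.54 (SE 0.06, adjusted p = 0.00161) and the syndecan SDC4 −0.44 (SE 0.06, adjusted p = 0.00346). The count of lower genes was 9 without PBS replicate 4 or rFGF4 replicate 3, and that of higher genes was 12 without PBS replicate 3 or rFGF4 replicate 3.

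The profile of TNS4 over the 8 libraries was compared with those of other tested genes with counts in all libraries. The other members and gene models without a name were left out. Likeness was the root-mean-square distance between log2 CPM profiles, each centred on its mean. VEGFA, which promotes vessel growth, was nearest, at 0.11, followed by the cytokine CXCL1 (0.12), the heparan sulfate enzyme gene HS3ST1 (0.13), the transcription factor gene SOX7 (0.13) and the AP-1 subunit JUN (0.13). JUN stood at 21.3 ± 1.16 and 45.6 ± 4.01 CPM and SOX7 at 42.5 ± 0.950 and 85.4 ± 7.87 CPM. The choice of a near profile fixes the direction of these genes, so no test is given for them.

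Libraries on separate levels, as for FERMT1, were also seen in the wider list, among genes chosen here after their values were seen. LASP1, a LIM protein of actin, was at 195, 741, 748 and 754 CPM in the PBS libraries and at 172, 649, 169 and 694 CPM in the rFGF4 libraries. Its high and low libraries were about 4 times apart, in both groups. LPP, of the zyxin family, was at 13.1 CPM in PBS replicates 1 and 3 and at 52.4 CPM in replicates 2 and 4. CORO1C, a coronin that binds Arp2/3, ran from 62.5 to 174 CPM in the PBS libraries and from 73.5 to 193 CPM in the rFGF4 libraries. The libraries on the high level differed from gene to gene, and none of the 3 passed the test. NCK2, PDLIM5 and SORBS3 were the only other tested genes of the list with a gap of at least 1 on the log2 scale. Such a gap was seen in 6.40% of 11506 genes, so it is not read as a trait of the list.

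**Figure D5:**
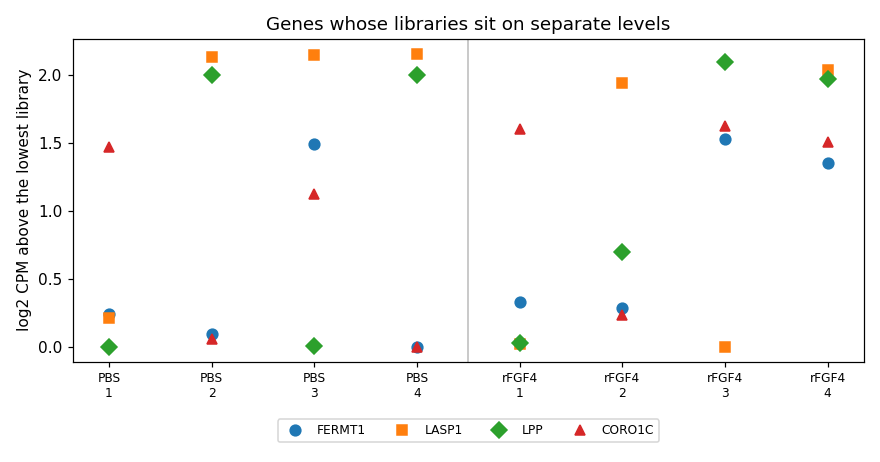
Log2 CPM above the lowest library for FERMT1, LASP1, LPP and CORO1C in each of the 8 libraries (PBS left of the line, rFGF4 right). Each gene has high and low libraries in both groups, and the high libraries are not the same ones for all 4 genes.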

How the data were processed

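One table with 8 libraries was analysed, 4 labelled PBS and 4 labelled rFGF4, matched by replicate number and by column names, with C read as the PBS control, which no label states. The submitters' processing notes name HISAT2 2.0 and StringTie 1.3.0 without their roles. The authors deposited FPKM, with 0.0001 for 0, and whole-number counts, per the file headers. Low counts pile up at 4 (9781 entries, against 3485 at 3 and 1977 at 5), so 1 fragment may be worth about 4 counts; the floor was set at 3 such fragments, 12 counts.

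Counts were tested with edgeR 4.0.16 in R 4.3.3 (TMM, glmQLFit and glmQLFTest, two-sided, Benjamini-Hochberg, threshold 0.05) over the 11536 genes whose FPKM averaged 1 or more. Y-chromosome genes, XIST and TSIX (521 of 58825) were left out. The SE is that implied by the test statistic. On simulated counts of these 11536 genes, the fit recovered 4% of 1.25-fold changes, 26% of 1.5-fold, 80% of 2-fold and 94% of 4-fold changes, and made 2 false calls. The simulation changed 50 genes at each fold, fewer in all than the 1157 called in the data, so recovery in the data may differ. Alternatives used limma 3.58.1 on log2(FPKM + 1) and log2(FPKM + 0.1), and DESeq2 1.42.0.

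The members and lists were chosen with earlier results of these data known. The named genes are the members, the wider-list genes past the threshold (up to 4 per role and direction) and the paralogs. The 5 profiles nearest TNS4, among named genes outside the members, are given too. The genes of the annotated set and the separate-level genes were named after their values were seen. For 1 of the wider list's higher genes, counted with the others, the gene's own values are not reported here. No sequence is printed.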

Additional observations from a re-analysis of the deposited data

Results flagged for a closer look

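Among 70 groups of 4 libraries, those of the members and of the other genes whose log2 fold change or CPM is given, 5 had a library set apart from the rest by a wide gap for the group's range. Chance alone sets about 1 in 20 such groups apart. FERMT1 stood at 244 CPM in PBS replicate 3, with the other PBS libraries at 86.6 to 103 CPM. TNS1 stood at 6.83 CPM in PBS replicate 1, with the others at 13.6 to 14.1 CPM. TNS1 also stood at 8.57 CPM in rFGF4 replicate 2, with the others at 8.71 to 8.74 CPM, a group whose whole range was small. LASP1 stood at 195 CPM in PBS replicate 1, with the others at 741 to 754 CPM, and CORO1C at 73.5 CPM in rFGF4 replicate 2, with the others at 178 to 193 CPM. LASP1 and CORO1C were chosen for such gaps after their values were seen.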

How the results depend on the processing

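The counts of genes called depended most on the tool and on single libraries. Over the whole table, 633 genes were higher and 524 lower. DESeq2 called 982 and 846. With 1 library left out, the counts were 326 to 622 and 269 to 550. The wider list's 3 higher genes became 1 with limma on log2(FPKM + 1), limma on log2(FPKM + 0.1), no filter on low values and the replicate block, and 1 to 4 with 1 library left out. Its 6 lower genes numbered 5 to 7 with 1 library left out and 9 with DESeq2. The annotated set had 12 to 20 higher and 9 to 13 lower genes with 1 library left out. The deviations of same-numbered libraries had r = 0.012, −0.040, −0.020 and 0.199 over 11506 genes for replicates 1 to 4, and those of differently numbered libraries −0.172 to 0.109. Of the pairs, that of replicate 4 alone was over 0.1, so the numbers were not taken to pair the libraries. With the replicate number as a block 561 genes were higher and 452 lower. No called gene named in the text changed direction under any setting run, while TLN1, not called, lay between −0.07 and 0.02. LPP, not called, had a log2 fold change of 0.12. With 1 library left out it lay between −0.15 and 0.44, and was below 0 without PBS replicate 1 or 3 or rFGF4 replicate 4. LPP was not tested without rFGF4 replicate 3, its highest library (56.1 CPM), as it then fell below the filter on low values. Differences of 1.5-fold or less were often missed on simulated counts, where fewer genes were changed than were called here. A member not past the threshold is thus not shown to be unchanged.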
